A study of Sus scrofa with 2 samples.

Results

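The XCL1-low cytotoxic lymphocytes of pig endometrium were followed through single-cell libraries from 2 Yorkshire sows aged 3 years. Members were selected on measured UMIs (unique molecular identifiers, each counting 1 captured transcript): barcodes with at least 500 UMIs and 300 detected genes, at least 3 UMIs summed over CCL5, NKG7, KLRK1 and CD8A, and at most 1 UMI of XCL1. This gave 798 members among 19466 barcodes that met the depth limits: 194 of 10797 in the embryo loss library (EL) and 604 of 8669 in the implantation library (EIS). The EL sow had aborted before and then did not conceive at 3 inseminations in succession, and the stage at which this sow was sampled is not given in the sources used here. The EIS sow was at day 30 of gestation. Both endometrial samples came from the uterine horns and were digested with collagenase and dispersed protease, and the labels name no sort of a cell type. Each group was 1 sow and 1 library, so sow, pregnancy, stage and library cannot be told apart, and no test between groups exists. All intervals below are exact 95% intervals that cover counting error only, and a cell count cannot tell fewer cells in the tissue from fewer cells recovered.

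Cytotoxic lymphocytes comprise CD8 T cells and natural killer cells, which kill target cells with perforin and granzymes stored in granules and secrete interferon gamma and chemokines. T-bet, the product of TBX21, directs this program in both lineages. In the endometrium, lymphocytes that stay in the tissue are found beside others that enter from blood and leave again: KLF2 and the sphingosine-1-phosphate receptors S1PR1 and S1PR5 are known for exit into the circulation, and CD69 for retention by opposing S1PR1. XCL1 is a chemokine that attracts cross-presenting dendritic cells and is made by activated cytotoxic and innate lymphocytes, so a limit on XCL1 divides the cytotoxic cells by this product. KLRK1 (NKG2D) and FCGR3A (CD16) are activating receptors found on natural killer cells and on some T cells.

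The EL members held 470205 UMIs, with a median of 1330 per barcode, and the EIS members 2509827, with a median of 2078.5. Among the 26881 features, 16128 carried no gene symbol, and these held 28.0% of the EL members' UMIs and 25.7% of the EIS members' UMIs. CD3E, CD8B, the granzymes A, B and H, granulysin and the T cell receptor chains were not analysed here under a symbol. The libraries shared 27 barcode sequences, of which 0 EL members and 3 EIS members held one. SLPI, a protein of uterine secretion, served as a sign of free RNA and had a UMI in 10 of 194 EL members and in all 604 EIS members.

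CCL5, a chemokine for T cells and macrophages, carried most of the sum that chose the members, and these values are a description of the rule. A CCL5 UMI was present in 99.0% of EL and 96.0% of EIS members, with a median of 12.5 and 6 UMIs. NKG7, a granule membrane protein, was detected in 56.7% and 64.1%, KLRK1, an activating receptor for stress ligands, in 68.6% and 60.4%, and CD8A, a chain of the coreceptor CD8, in 28.9% and 43.2%. The median sum over the 4 genes was 16.5 in EL and 10 in EIS, with ranges of 3 to 62 and 3 to 97. At the XCL1 limit, 29 EL members and 16 EIS members had 1 XCL1 UMI, and 27 EL and 4 EIS barcodes stood just outside with 2. At the other limit, 12 EL and 129 EIS members had a sum of exactly 3, and 64 EL and 350 EIS barcodes stood just outside with 2.

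**Figure D1:**
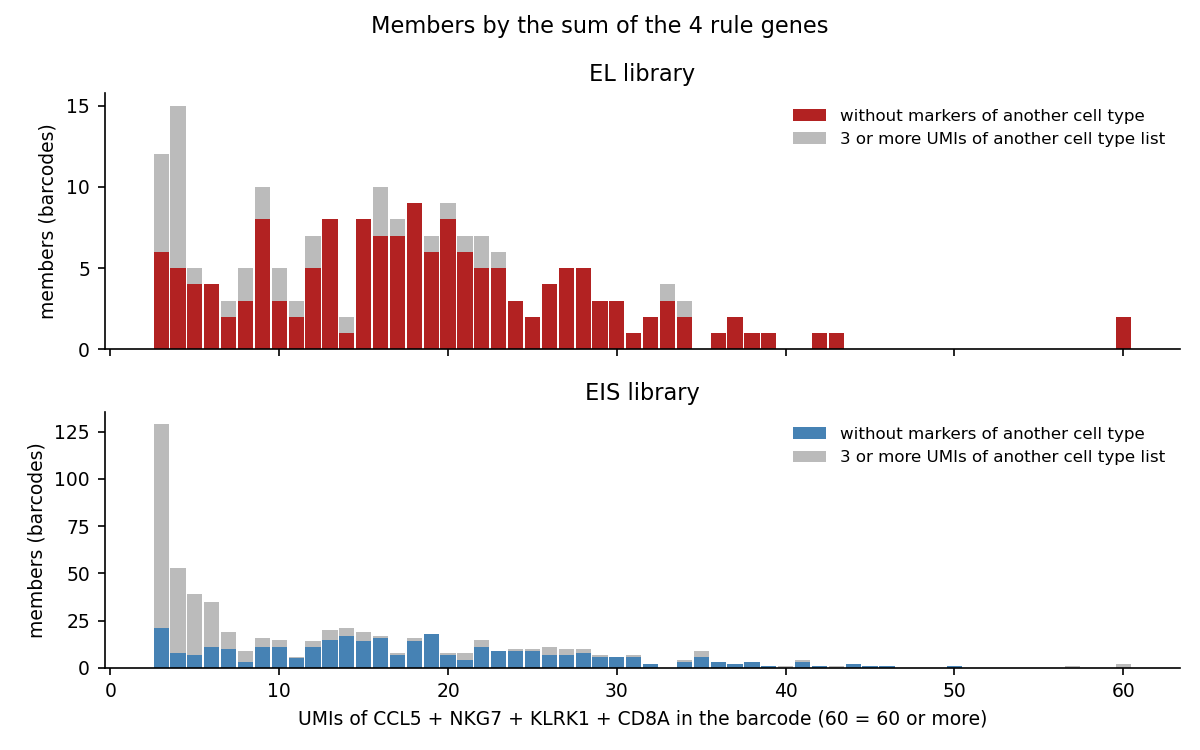
Number of member barcodes (vertical axis) by the summed UMIs of CCL5, NKG7, KLRK1 and CD8A (horizontal axis, values of 60 or more drawn at 60) in the EL and EIS libraries. Coloured bars are members without markers of another cell type and grey bars are members with 3 or more UMIs of at least 1 other cell type list, which in EIS made up 84.1% of the members with a sum of 3 or 4.

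The members were not all lymphocytes by their other markers. Of the 194 EL members, 40 (20.6%, interval 15.2 to 27.0) carried 3 or more UMIs of a marker list of another cell type, and of the 604 EIS members, 287 did (47.5%, interval 43.5 to 51.6), 201 of them for at least 2 lists. In EL, 31 of these were positive for the epithelial list. In EIS, 187 were positive for the stromal list, 148 for the epithelial list, 146 for the trophoblast-like list, 89 for the macrophage list, 87 for the smooth muscle list and 78 for the vascular endothelial list. Such barcodes were also deeper, with a median of 4650 UMIs in EL and 5237 in EIS. The share with other markers was lower at higher sums of the rule genes: in EIS it was 84.1% of 182 members at a sum of 3 to 4, 58.3% of 139 at 5 to 11 and 18.2% of 231 at 12 to 29. In EL it was 59.3% of 27, 25.7% of 35 and 11.8% of 110. Whether these barcodes held more than 1 cell or free RNA was not tested.

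Lymphocyte genes that the rule did not use were higher at a sum of 12 to 29 than at 3 to 4. TBX21, the fifth marker of these cells, was at 11.7 CPM (UMIs per 1000000 UMIs of the same set, interval 6.03 to 20.4) in EIS members with a sum of 3 to 4, close to the 9.42 CPM (5.27 to 15.5) of the barcodes just outside the rule, and at 375 CPM (327 to 427) at a sum of 12 to 29. In EL it was at 19.6 CPM (2.38 to 70.9) at a sum of 3 to 4 and at 192 CPM (138 to 259) at 12 to 29. PRF1, the pore-forming perforin, stood at 4.87 CPM at a sum of 3 to 4 and 186 CPM at 12 to 29 in EIS, and at 9.82 and 169 CPM in EL. CD3D, a chain of the T cell receptor complex, stood at 11.7 and 223 CPM in EIS and at 9.82 and 174 CPM in EL. FCGR3A, which macrophages also carry, stood at 498 and 1651 CPM in EIS and at 1070 and 1727 CPM in EL, with 719 CPM between them at a sum of 5 to 11. At a sum of 30 or more (52 EIS and 22 EL barcodes), TBX21 was lower again in EIS, at 207 CPM (146 to 285). In EL TBX21 was at 243 CPM (126 to 425). PRF1 and CD3D stood there at 240 and 251 CPM in EIS and at 243 and 325 CPM in EL. FCGR3A stood at 1486 CPM in EIS and 1664 CPM in EL. The markers thus fitted cytotoxic lymphocytes at the higher sums, while the interval of TBX21 at a sum of 3 to 4 overlapped that of the barcodes outside the rule in both libraries.

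**Figure D2:**
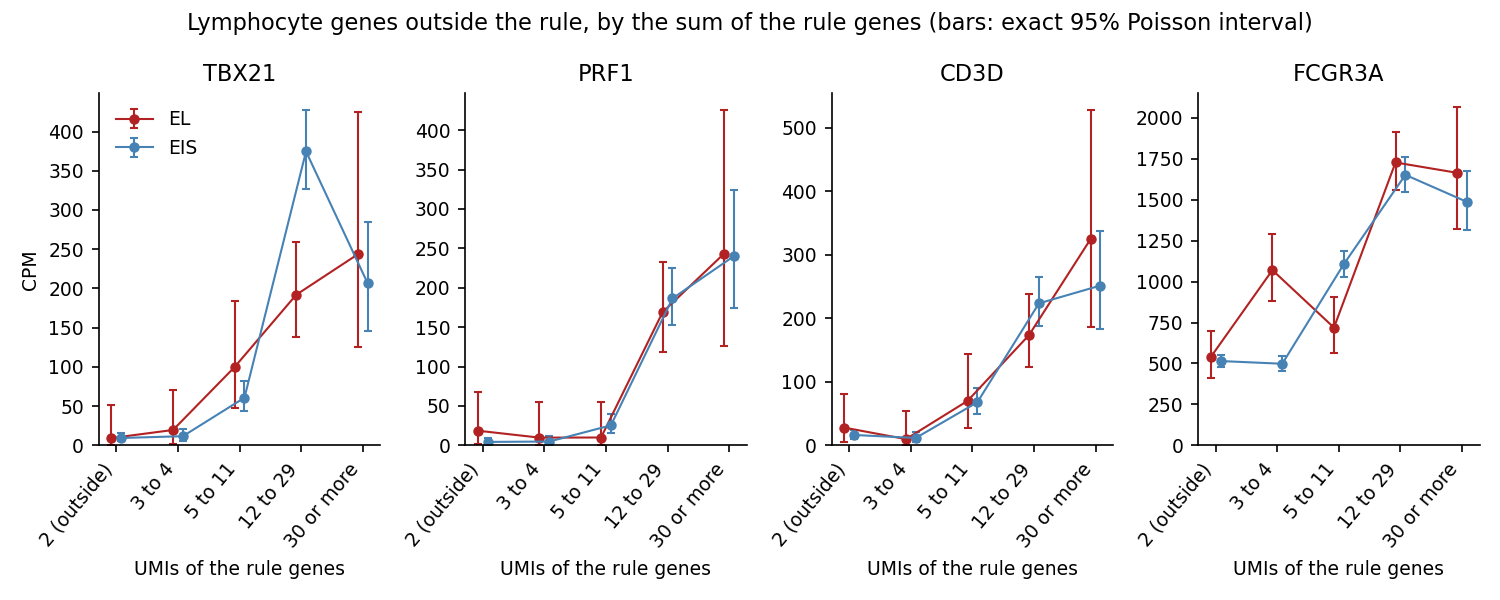
Level in CPM (vertical axes, starting at 0) of TBX21, PRF1, CD3D and FCGR3A, none of which the rule uses, against the summed UMIs of the rule genes (horizontal axes, with barcodes of a sum of 2 outside the rule at the left). Points are summed EL (red) and EIS (blue) barcodes and bars are exact 95% Poisson intervals; TBX21, PRF1 and CD3D stay under 30 CPM at sums of 2 to 4 in both libraries.

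Results are therefore given for all members and, beside them, for the members without other markers: 154 in EL, with a median of 1232 UMIs, and 317 in EIS, with a median of 1690. Leaving these barcodes out keeps shallow barcodes more readily than deep ones. The macrophage list of these barcodes came to 20.2 CPM (EL) and 40.3 CPM (EIS), against 1059 and 2502 CPM in all members. The stromal list came to 10.1 and 287 CPM, the epithelial list to 182 and 138 CPM and the trophoblast-like list to 101 and 245 CPM. The uterine secretion list was still at 146 CPM (EL) and 31905 CPM (EIS).

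The members were a smaller part of the EL library than of the EIS library. They made up 1.80% (interval 1.55 to 2.07) of the EL barcodes and 6.97% (6.44 to 7.52) of the EIS barcodes, a ratio of 0.258 (0.218 to 0.304). Without other markers the shares were 1.43% (1.21 to 1.67) and 3.66% (3.27 to 4.07), a ratio of 0.390 (0.320 to 0.474). With every barcode thinned to 500 UMIs, which leaves out no barcode, the rule took 1.71% and 3.41%, a ratio of 0.501. EL thus stayed below EIS in each of these counts, with a ratio of 0.258 at the barcodes' own depth and 0.501 after thinning. Thinning applied both limits anew to fewer UMIs, so barcodes could leave the members or, by the XCL1 limit, enter them. An expected 185 EL and 296 EIS barcodes met the limits, against 194 and 604 at their own depth. The effects of depth and of this changed membership on the ratio were not told apart. The barcodes with the same sum but 2 or more XCL1 UMIs went the other way, with 77 (0.713%, 0.563 to 0.891) in EL and 30 (0.346%, 0.234 to 0.494) in EIS.

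Leukocyte and effector genes outside the rule were detected in members without other markers at higher shares than in epithelial barcodes, in both libraries. PTPRC (CD45, carried by all leukocytes) had a UMI in 84.4% (77.7 to 89.8) of EL and 89.6% (85.7 to 92.7) of EIS barcodes, against 1.26% and 8.34% of the libraries' epithelial barcodes without a UMI of the rule genes, at median depths of 3781 and 4047 UMIs. That choice can lower the background, and it applies to all epithelial shares given here. FCGR3A, the low-affinity Fc receptor CD16, had a UMI in 71.4% (63.6 to 78.4) and 86.4% (82.2 to 90.0), against 2.05% and 17.7% of epithelial barcodes. TBX21 had one in 27.9% (21.0 to 35.7) and 50.5% (44.8 to 56.1), against 0.0559% and 0.802%. PRF1 had one in 21.4% (15.2 to 28.8) and 33.8% (28.6 to 39.3), against 0.0279% and 0.513%. Thinned to 500 UMIs the PRF1 shares were 9.63% and 11.3%. By the ratio to the other barcodes of the same library, the genes that led the members were TBX21, BATF, IFNG, GPR18, PRF1, CD226, LCK, GFI1, gzmM, PTPN22, IL2RB, CST7, GBP1, FASLG and LY6D. BATF is a transcription factor of effector lymphocytes, CD226 an activating receptor, LCK the kinase of CD4 and CD8, and FASLG a death ligand.

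The receptor FCGR3A and the adaptors FCER1G or TYROBP were detected at overlapping shares in members with and without the T cell gene CD3D. CD3D had a UMI in 26.0% (19.2 to 33.6) of the EL and 43.5% (38.0 to 49.2) of the EIS members without other markers, and in 0.140% and 1.31% of epithelial barcodes. Thinned to 500 UMIs the CD3D shares were 11.7% and 16.3%. CD3G had 0 UMIs in the members of both libraries, which limits the share of barcodes with a UMI to 1.88% in EL and 0.609% in EIS by the exact interval and does not limit the share of cells expressing the gene. In EL, FCGR3A had a UMI in 30 of 40 barcodes with CD3D (75.0%, 58.8 to 87.3) and in 80 of 114 without (70.2%, 60.9 to 78.4). In EIS it did in 122 of 138 (88.4%, 81.9 to 93.2) and in 152 of 179 (84.9%, 78.8 to 89.8). FCER1G or TYROBP, adaptors of natural killer and myeloid receptors, had a UMI in 9 of 40 EL barcodes with CD3D (22.5%, 10.8 to 38.5) and 21 of 114 without (18.4%, 11.8 to 26.8). In EIS the counts were 67 of 138 (48.6%, 40.0 to 57.2) and 73 of 179 (40.8%, 33.5 to 48.4). CD8A was at 30.0% and 28.1% in EL and at 64.5% and 62.6% in EIS, with and without CD3D. Its UMIs count toward the rule that chose the members, so these CD8A shares are a description only. NCR1, an activating receptor of natural killer cells, had a UMI in 3 EL and 1 EIS barcode of these sets. KLRB1 and KLRD1, of the natural killer list, had one in 6 and 6 EL and in 5 and 10 EIS barcodes. A barcode without a CD3D UMI can still be a cell that expresses CD3D. This division therefore does not separate T cells from natural killer cells.

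The members were next compared, within each library, with the barcodes that met the same sum but carried 2 or more XCL1 UMIs, again without other markers on both sides (68 barcodes in EL, 25 in EIS). A gene was called when its CPM differed by at least 2-fold and the interval of the ratio excluded 1, among genes with at least 20 UMIs over the 2 sums. In EL, 123 of 2685 genes (4.58%) were called higher in the members and 87 (3.24%) lower. In EIS, 161 of 4535 (3.55%) were higher and 146 (3.22%) lower. In both libraries, 51 of 2642 genes (1.93%) were called higher and 12 (0.454%) lower. With barcodes carrying other markers kept, 302 (5.73%) were higher and 247 (4.69%) lower in EL, 492 (4.99%) and 356 (3.61%) in EIS, and 109 (2.09%) and 41 (0.788%) in both.

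ZEB2, RASA3, CX3CR1, S1PR5, S100A4, KLF2 and TBX21 were higher in the members than in the XCL1 barcodes of both libraries. ZEB2, a transcription factor that acts with T-bet in terminal effector cells, was at 298 CPM in EL members against 9.70 CPM (1 UMI) in EL XCL1 barcodes, 30.7-fold with an interval of 5.30 to 1234. In EIS it was at 415 against 14.7 CPM (1 UMI), 28.3-fold (5.04 to 1124). RASA3, a Ras GTPase-activating protein, was at 374 against 9.70 CPM in EL and at 571 against 44.0 CPM in EIS, 38.5-fold (6.70 to 1542) and 13.0-fold (4.41 to 63.3). These genes rest on 1 to 3 UMIs on the XCL1 side, which is why the intervals are wide.

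CX3CR1, the fractalkine receptor of blood effector cells, was at 162 CPM (EL) and 207 CPM (EIS) in members and at 0 UMIs in both sets of XCL1 barcodes, so it was at least 5.55-fold and at least 4.70-fold higher, counted against 3 UMIs in the set. S1PR5 was at 116 CPM against 9.70 CPM (1 UMI) in EL, a log2 ratio of 3.58 (fold interval 1.94 to 493), and at 189 CPM against 0 UMIs in EIS, at least 4.30-fold. S100A4, a calcium-binding protein of effector cells, was at 1682 against 388 CPM in EL, 4.33-fold (3.12 to 6.18), and at 2217 against 220 CPM in EIS, 10.1-fold (6.09 to 18.1). KLF2 was at 1267 against 388 CPM in EL, 3.27-fold (2.33 to 4.68), and at 3014 against 264 CPM in EIS, 11.4-fold (7.21 to 19.3). Its XCL1-side UMIs came from 8 of 68 EL and 4 of 25 EIS barcodes, with up to 14 and 10 in a single barcode. The KLF2 intervals treat UMIs as independent and are therefore too narrow. With all barcodes kept, KLF2 was at a log2 ratio of 0.62 in EL, under the call, and at 2.16 in EIS. TBX21 was at 278 against 77.6 CPM in EL, 3.58-fold (1.70 to 8.70), and at 438 against 103 CPM in EIS, 4.27-fold (2.04 to 10.7). With all barcodes kept its log2 ratios were 0.99 and 0.80, under the call in both.

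CD69, CD96 and KLRB1 were lower in the members. CD69 was at 202 CPM in EL members against 718 CPM in XCL1 barcodes, 3.55-fold lower (2.39 to 5.36), and at 377 against 1583 CPM in EIS, 4.20-fold lower (3.30 to 5.32). In EIS 15 of 25 XCL1 barcodes had a CD69 UMI, with up to 22 in a single barcode, so that interval is too narrow. CD96, a receptor for nectin-like ligands on T and natural killer cells, was at 75.7 against 446 CPM in EL, 5.89-fold lower (3.23 to 11.4), and at 38.5 against 249 CPM in EIS, 6.46-fold lower (3.22 to 12.7). KLRB1 (CD161) was at 85.8 against 446 CPM in EL, 5.20-fold lower (2.92 to 9.67), and at 28.0 against 103 CPM in EIS, 3.66-fold lower (1.27 to 9.40). The EIS KLRB1 UMIs came from 5 of 317 members and 2 of 25 XCL1 barcodes, so the interval, which treats UMIs as independent, is too narrow. All 3 were called lower with all barcodes kept too. PLAC8 and CCDC50 were lower in both libraries as well, by 2.22-fold and 2.80-fold in EL and by 2.29-fold and 2.73-fold in EIS.

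PRF1 was at 227 CPM in EL members against 213 CPM in XCL1 barcodes (1.07-fold, 0.626 to 1.86) and at 244 against 73.3 CPM (5 UMIs) in EIS, 3.32-fold (1.39 to 10.4). gzmM, a granzyme, was at 384 against 155 CPM in EL, 2.47-fold (1.43 to 4.54), and at 359 against 205 CPM in EIS, 1.75-fold (1.02 to 3.26), under the call. gzmK, a granzyme of memory-type cells, was at 80.8 against 58.2 CPM in EL and at 10.5 against 205 CPM in EIS, 19.5-fold lower (7.04 to 62.0). FCGR3A was at 1974 against 533 CPM in EL, 3.70-fold higher (2.79 to 5.00), and at 2190 against 1861 CPM in EIS, 1.18-fold (0.980 to 1.42). Among the 9 granule proteins and death ligands tested, 2 were called higher and 0 lower in EL (median log2 0.20) and 3 higher and 1 lower in EIS (median 0.28), against median genes of -0.00 and 0.11.

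The recirculation list stood further from the median gene, but it was chosen with results of these data known. Among its 9 genes with a symbol, 5 were tested in EL, with 3 called higher, 0 lower and a median log2 ratio of 1.71. In EIS 8 were tested, with 4 called higher, 1 lower and a median of 1.76. Genes were tested by their UMIs over the 2 sums, and the members' sums were larger. These were 198033 against 103114 UMIs in EL and 570718 against 68239 in EIS. CX3CR1 had 0 XCL1-side UMIs in both libraries and S1PR5 had 1 in EL and 0 in EIS, so both entered through the members. The medians are therefore a description and no test of the list. The gene called lower in EIS was IL7R, the interleukin 7 receptor, at 94.6 CPM in members against 352 CPM in XCL1 barcodes, 3.72-fold lower (2.20 to 6.12). These UMIs came from 10 of 317 members and 11 of 25 XCL1 barcodes, with up to 15 and 8 in a single barcode, so the interval is too narrow. In EL IL7R had 10 and 2 UMIs, too few to test. Of 4 T cell receptor complex genes tested, 0 were called in either library. Of the lymphocyte transcription factors, 2 of 14 were higher and 0 lower in EL, and 4 of 15 were higher and 1 lower in EIS. In the natural killer list 1 of 8 was higher and 3 lower in EL, and 2 of 9 were higher and 3 lower in EIS. Over all genes tested, 4.58% were higher and 3.24% lower in EL, and 3.55% and 3.22% in EIS.

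**Figure D3:**
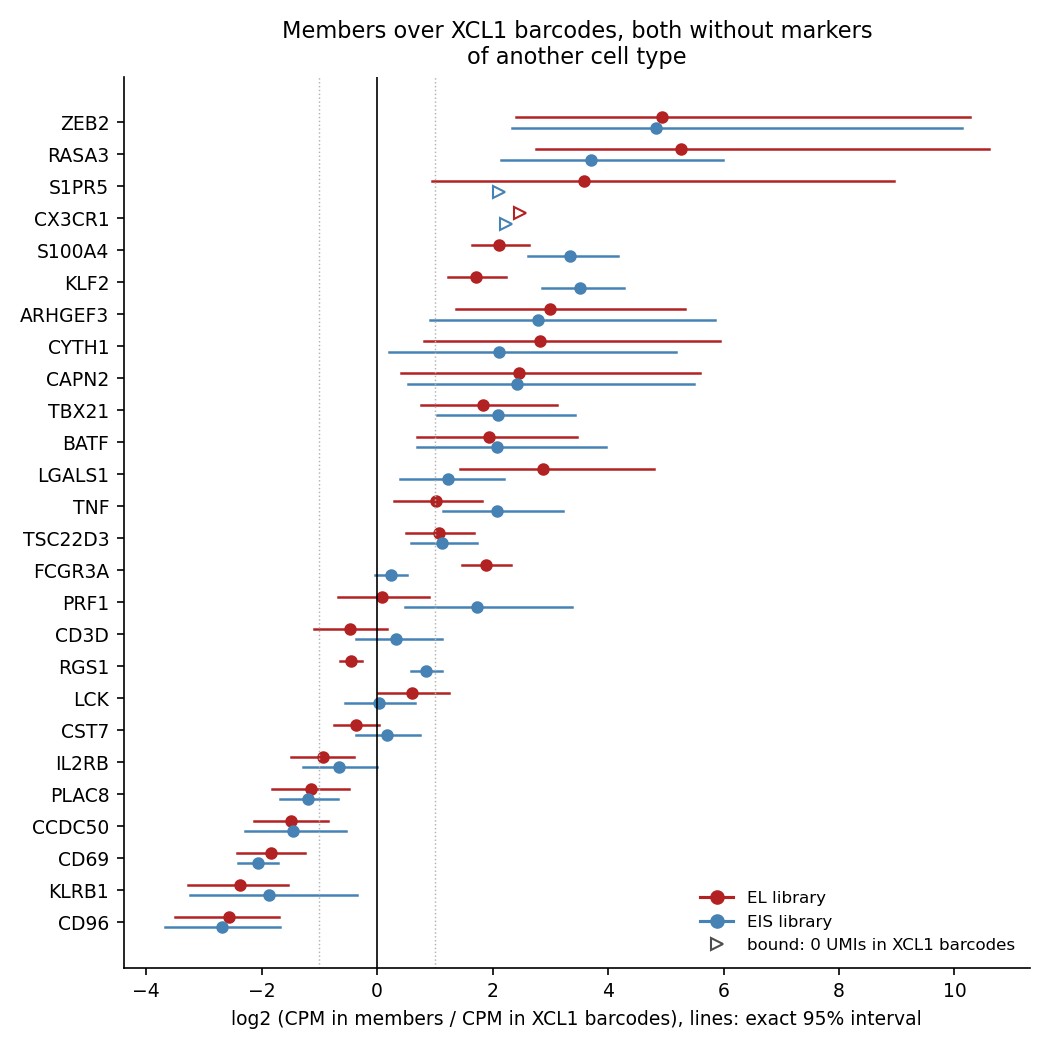
Log2 ratio of CPM (horizontal axis) in members over barcodes with the same sum of rule genes and 2 or more XCL1 UMIs, for 26 genes (vertical axis), in EL (red) and EIS (blue), all without markers of another cell type. Points carry exact 95% intervals, open triangles are lower bounds where the XCL1 barcodes had 0 UMIs, and dotted lines mark 2-fold; ZEB2 stands at 4.94 and 4.82 and CD96 at -2.56 and -2.69.

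The members differed among themselves in KLF2 and S100A4 in both libraries, while RASA3, CD96 and KLRB1 are given below for EL only. Barcodes without other markers were divided by the presence of a UMI of ZEB2, S1PR5 or CX3CR1, a division chosen after their values were seen. Such a UMI was found in 62 of 154 EL barcodes (40.3%, 32.4 to 48.5) and 215 of 317 EIS barcodes (67.8%, 62.4 to 72.9), and in 2 of 68 and 1 of 25 XCL1 barcodes. Thinned to 500 UMIs the EL and EIS shares were 21.6% and 32.7%. ZEB2 alone had a UMI in 0.252% of EL and 7.54% of EIS epithelial barcodes without a UMI of the rule genes. The part of free RNA in this division was not tested. In EL, KLF2 was at 1941 CPM (1663 to 2251) in barcodes with such a UMI and at 710 CPM (561 to 888) in those without. S100A4 was at 2275 (1974 to 2610) and 1190 CPM (994 to 1414), and RASA3 at 558 (414 to 735) and 221 CPM (142 to 330). CD96 went the other way in EL, at 11.2 (0.282 to 62.1) and 129 CPM (70.6 to 217), as did KLRB1, at 22.3 (2.70 to 80.6) and 138 CPM (77.5 to 228), although its UMIs came from 1 and 5 barcodes.

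In EIS the same division gave smaller gaps for KLF2, at 3214 (3040 to 3395) and 2560 CPM (2328 to 2808), and for S100A4, at 2393 (2243 to 2551) and 1815 CPM (1621 to 2026). CD69 was at 227 CPM (183 to 279) with such a UMI and 716 CPM (596 to 853) without in EIS, and at 145 (77.2 to 248) and 249 CPM (164 to 362) in EL. IFNG, the macrophage-activating cytokine, was at 626 (551 to 709) and 309 CPM (232 to 403) in EIS and at 558 (414 to 735) and 351 CPM (248 to 481) in EL. FCGR3A, PRF1 and CD3D had overlapping intervals on both sides of the division in both libraries. Within each stratum KLF2 stayed higher in EIS than in EL.

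**Figure D4:**
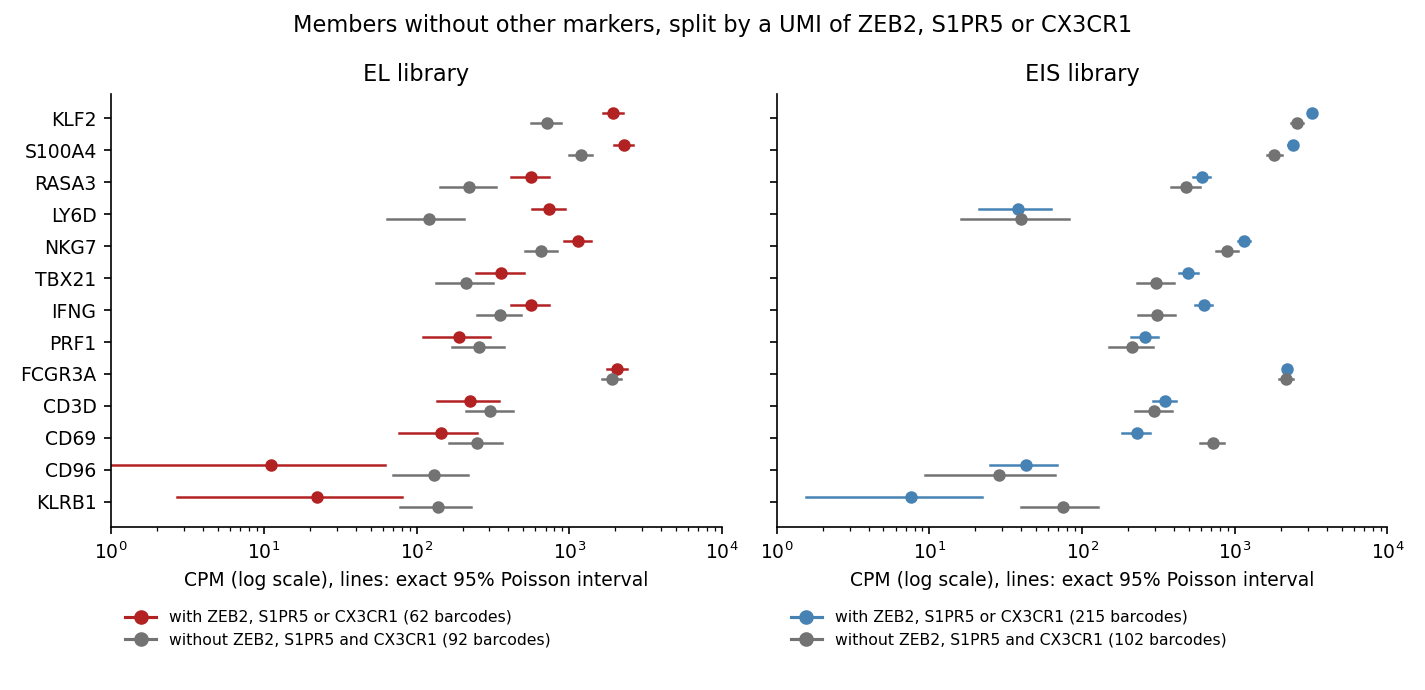
Level in CPM (horizontal axes, log scale) of 13 genes in members without other markers that had (colour) or lacked (grey) a UMI of ZEB2, S1PR5 or CX3CR1, in the EL library (62 and 92 barcodes) and the EIS library (215 and 102 barcodes). Lines are exact 95% Poisson intervals. KLF2 and S100A4 are higher in barcodes with such a UMI in both libraries. In EL, RASA3 is higher and KLRB1, with UMIs in only 6 of 154 barcodes, is lower.

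Between the libraries, over all members, 921 of 10357 genes (8.89%) were called higher in EL and 782 (7.55%) higher in EIS, around a median gene of 0.21 on the log2 scale. This split rested on the scaling: with TMM factors it was 437 and 1236, and with the median ratio over genes 514 and 1104. Genes of macrophages and vessels were among those higher in EIS, beside the far larger excess of the uterine secretion list, at 115 CPM in EL members and 114005 CPM in EIS members. LYVE1 and MRC1, scavenger receptors of macrophages and lymphatics, were at 0 and 12.8 CPM in EL members and at 424 and 229 CPM in EIS members. The endothelial genes PLAT, SOX18 and MMRN1 were at 0 UMIs in EL members and at 199, 174 and 136 CPM in EIS members, at least 31.2-fold, 27.3-fold and 21.4-fold higher against 3 UMIs. In EIS members without other markers these 5 genes had 1 to 11 UMIs each. LYVE1 and MRC1 are in the macrophage list that defines those barcodes, and PLAT, SOX18 and MMRN1 are in no list.

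Without those barcodes 181 of 5170 genes (3.5%) were called higher in EL and 153 (2.96%) higher in EIS, around a median gene of 0.06. XCL1, limited to 1 UMI by the rule, had one in 27 of 154 EL and 7 of 317 EIS barcodes, at 136 and 12.3 CPM. Whether these barcodes bear on the differences below was not tested in this set. LY6D, a small surface protein anchored by glycolipid, was higher in EL: 399 CPM (316 to 497) in EL against 38.5 CPM (24.2 to 58.4) in EIS, 10.3-fold (6.38 to 17.4). It sat in 25 of 154 EL barcodes (16.2%, 10.8 to 23.0) and 14 of 317 EIS barcodes (4.42%, 2.44 to 7.30), and in 0.0838% and 0.0962% of the libraries' epithelial barcodes. In EL, LY6D stood at 736 CPM (569 to 937) in barcodes with a UMI of ZEB2, S1PR5 or CX3CR1 and at 120 CPM (63.9 to 205) in the others, and the EL XCL1 barcodes without other markers held 1 UMI. Over all members it was at 225 against 11.2 CPM, 20.2-fold (13.2 to 31.8).

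Further genes were higher in EL with all members and without other markers alike. KLRB1 was at 85.8 CPM (EL) and 28.0 CPM (EIS), 3.06-fold (1.45 to 6.48), on 17 UMIs from 6 barcodes and 16 UMIs from 5, with the same limit on its interval. gzmK was at 80.8 (46.2 to 131) and 10.5 CPM (3.86 to 22.9), 7.69-fold (2.86 to 24.0), from 13 and 4 barcodes. SPOCK2, a secreted proteoglycan, was at 116 and 17.5 CPM, 6.63-fold (3.03 to 15.6). EVI2A was at 268 and 102 CPM, 2.63-fold (1.78 to 3.89), and STK17A, an apoptosis-linked kinase, at 586 and 272 CPM, 2.16-fold (1.68 to 2.76). ID3, an inhibitor of E proteins, was at 106 and 36.8 CPM, 2.88-fold (1.50 to 5.55), with 481 and 112 CPM in the other barcodes of the libraries. The ID3 call was lost with 10% free RNA removed and at a sum of at least 12.

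Of the interferon response list, 2 of the 12 genes tested were called higher in EL and 0 higher in EIS without other markers, with a median of -0.04 against 0.06 for all genes. Of all genes tested, 3.5% were called higher in EL and 2.96% higher in EIS. MX1, an antiviral GTPase, was at 106 (65.6 to 162) and 28.0 CPM (16.0 to 45.5), 3.78-fold (1.88 to 7.75), and EIF2AK2, the double-stranded RNA kinase, at 202 (144 to 275) and 56.1 CPM (38.4 to 79.2), 3.60-fold (2.21 to 5.92). Both genes were also higher in the remaining EL barcodes, at 90.4 and 99.3 CPM against 36.6 and 49.5 CPM in EIS. The other 10 genes were not called, among them GBP1, a guanylate-binding protein, at 1575 and 1074 CPM. Over all members 6 of 14 were higher in EL, against 8.89% of all genes tested, with IFIT2 among them at 102 against 33.1 CPM. In EL 1 barcode held 25 of the 48 IFIT2 UMIs, and without other markers IFIT2 was at 10.1 CPM (EL) and 36.8 CPM (EIS).

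Among effector genes only gzmK was called between the libraries once other markers were left out. Of the granule proteins and death ligands, 1 of 9, gzmK, was higher in EL and 0 in EIS (median 0.10). Over all members 3 of 9 were higher in EL (median 0.72), against 8.89% of all genes tested and a median gene of 0.21. PRF1 was at 227 (166 to 304) and 244 CPM (205 to 288), a 1.07-fold difference (0.761 to 1.54), gzmM at 384 (302 to 480) and 359 CPM (312 to 412), and IFNG at 444 (356 to 547) and 529 CPM (471 to 592). CST7, which inhibits granule proteases, was at 707 and 526 CPM, 1.34-fold (1.09 to 1.65), and at 2.29-fold over all members. CCL4, a chemokine, was at 4923 and 3538 CPM, 1.39-fold (1.29 to 1.50). TBX21 was at 278 (209 to 362) and 438 CPM (385 to 496), 1.58-fold lower in EL (1.17 to 2.15). CD3D was at 268 and 333 CPM and FCGR3A at 1974 and 2190 CPM, 1.11-fold (0.989 to 1.25). Of the T cell receptor complex 0 of 4 genes were called, of the cell cycle list 0 of 4, of the tissue residency list 0 of 4, of the chemokine list 0 of 4 and of the lymphocyte transcription factors 1 of 15, the gene ID3. Over all genes tested without other markers, 3.5% were called higher in EL and 2.96% higher in EIS. Counts of 0 of 4 are near these shares and say little about the lists.

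Without other markers KLF2 was called higher in EIS. It stood at 1267 CPM (1116 to 1434) in EL and 3014 CPM (2873 to 3160) in EIS, 2.38-fold (2.08 to 2.73), and had a UMI in 52.6% (44.4 to 60.7) and 85.5% (81.1 to 89.2) of barcodes. Thinned to 500 UMIs these shares were 33.8% and 62.3%, against 10.7% and 15.3% in epithelial barcodes. Of the recirculation list, 1 of 8 genes, KLF2, was higher in EIS and 0 in EL, with a median of -0.48. Of all genes tested without other markers, 2.96% were called higher in EIS and 3.5% higher in EL. S1PR1 was at 95.9 and 105 CPM, S1PR5 at 116 and 189 CPM and CX3CR1 at 162 and 207 CPM, none of them called. Over all members, 9 genes of this list were tested, with a median of -0.39. There S1PR1 was the 1 gene called higher in EIS, against 7.55% of all genes tested, and KLF2 was not called. FCER1G was at 207 (149 to 281) and 540 CPM (481 to 603), 2.61-fold higher in EIS (1.88 to 3.70), and at 11.3 and 66.1 CPM in the other barcodes. Over all members FCER1G was not called. LSP1, a leukocyte cytoskeletal protein, was at 268 and 538 CPM, 2.01-fold (1.50 to 2.74), a call lost without the top doublet scores, at a sum of at least 12 and at 1000 UMIs. JUNB, an AP-1 factor, was at 40.4 and 112 CPM, 2.78-fold (1.33 to 6.70).

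Without other markers, several genes of the steroid and stress lists were higher in EIS too. Of 3 steroid and glucocorticoid response genes tested, SGK1, at 70.7 and 177 CPM (2.50-fold, 1.43 to 4.74), and FKBP5, at 40.4 and 91.1 CPM (2.26-fold, 1.06 to 5.50), were higher in EIS, the latter no longer called at a sum of at least 12 or at 1000 UMIs. TSC22D3 was at 651 and 897 CPM, under the call. Over all members 0 of 5 genes of this list were called higher in EIS and 1, ESR1, higher in EL. Outside the members SGK1 was at 101 and 185 CPM, and FKBP5 at 178 and 28.9 CPM, the opposite order. Of the 11 metallothionein and stress genes tested, 4 were higher in EIS and 0 in EL. MT1A was at 25.2 and 128 CPM, MT1D at 40.4 and 394 CPM, MT2A at 131 and 419 CPM and TXNIP, an inhibitor of thioredoxin, at 111 and 286 CPM. MT2A had a UMI in 21 of 154 EL and 104 of 317 EIS barcodes, with at most 3 and 63 UMIs in a single barcode. Over all members 3 of 12 were called higher in EIS, and MT2A was not called. Of all genes tested without other markers, 2.96% were called higher in EIS and 3.5% higher in EL. Over all members these shares were 7.55% and 8.89%. In the other barcodes the 3 metallothioneins were at 292, 549 and 1140 CPM in EL and at 974, 1507 and 2210 CPM in EIS, and TXNIP at 231 and 210 CPM. SOCS3, a feedback inhibitor of cytokine signalling, was at 50.5 and 119 CPM, 2.36-fold (1.21 to 5.14), with 19.5 and 218 CPM in the other barcodes, and was not called with 10% free RNA removed or at a sum of at least 12. The part of free RNA in the other differences was not tested further.

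**Figure D5:**
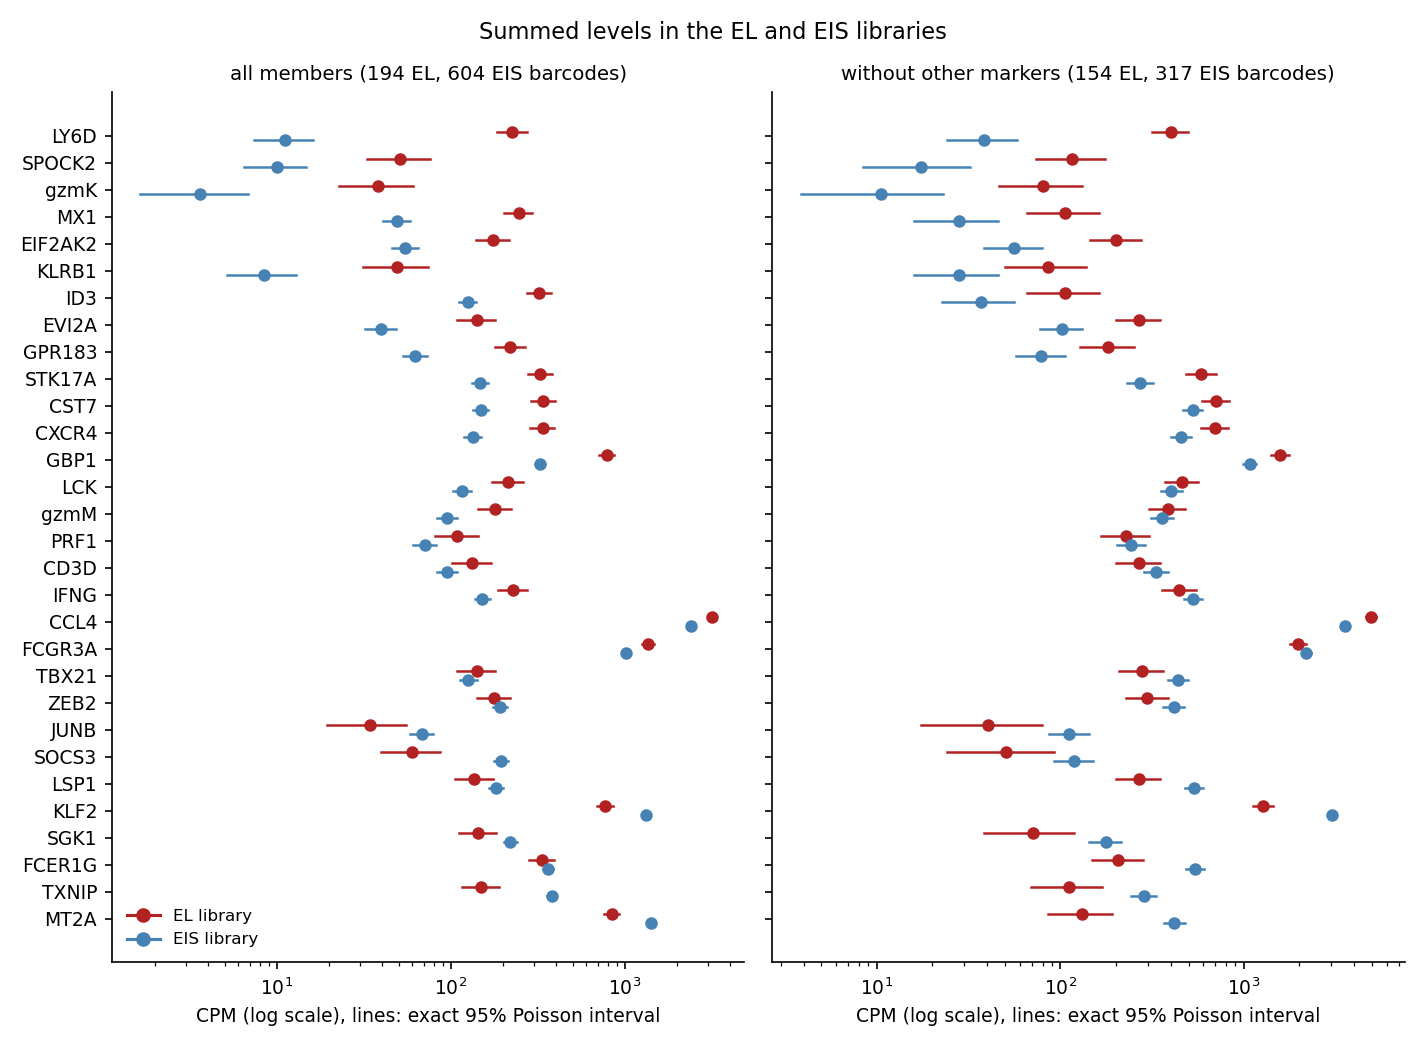
Summed level in CPM (horizontal axes, log scale) of 30 genes in EL (red) and EIS (blue) members, for all members at the left and for members without markers of another cell type at the right, with exact 95% Poisson intervals. LY6D, EVI2A and STK17A stay higher in EL in both panels. KLF2 is higher in EIS in both but called only at the right, and PRF1, gzmM and IFNG have overlapping intervals there.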

How the data were processed

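The deposited files are UMI counts per feature and barcode for 2 libraries, made by the authors with Cell Ranger 2.1.1 per the submitters' processing notes, while the file headers name cellranger 6.1.0 (the build and gene models: not given in the sources used here). Rows with the same symbol were summed (26828 rows). UMIs were summed over members per library and scaled to CPM, since cells are not replicates. Shares carry Clopper-Pearson intervals, levels Poisson intervals and ratios conditional binomial intervals (scipy 1.17.1 and numpy 2.4.6 under Python 3.11.15, with pandas 2.3.3 for tables). The code was tested on simulated counts. Doublets were kept. Scrublet in scanpy 1.11.5 marked 0 EL and 6 EIS barcodes, so its threshold did not work, and the top scores (933 and 601 barcodes, 0.8% per 1000) were left out as an alternative. TMM factors came from edgeR 4.0.16.

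Genes were named as up to 5 per list of at least 50 CPM, the 12 largest EL over EIS ratios each way of at least 100 CPM, the 8 largest ratios each way against XCL1 barcodes, and the 15 leading genes, each also without other markers. Outside this rule, gzmK, IL7R, CD3G, NCR1, KLRD1 and SLPI were named after their values were seen. Members, lists and rules were chosen with earlier results of these data known. The symbols gzmM and gzmK are spelled as in the files. No feature identifier matched the name tables, so no positions or sequences are given.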

Additional observations from a re-analysis of the deposited data

Results flagged for a closer look

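Against the XCL1 barcodes of their own library, 5 genes went in opposite directions in EL and EIS; the difference between the libraries was not tested in any of them. Without other markers, FCER1G was lower in EL members (log2 ratio -1.01) and higher in EIS members (2.40), with 43 and 7 UMIs on the XCL1 side. The EL call was lost with XCL1 at 0 UMIs, without the top doublet scores and at 1000 UMIs. MT1D was at -1.94 in EL and 2.16 in EIS, the latter under the call without the top doublet scores. With all barcodes kept, GPR183, an oxysterol receptor that guides lymphocyte position, was at 1.40 in EL and -2.21 in EIS, IFIH1, a sensor of viral RNA, at 1.22 and -1.64, and JUNB at -1.40 and 2.09. Without other markers GPR183 was at 0.64 and -2.62, IFIH1 at 1.38 and -1.29, and JUNB at -0.94 and 2.94. These 3 were called in EIS and not in EL, where JUNB had too few UMIs to test.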

How the results depend on the processing

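EL stayed below EIS in the share of members under every rule tried. The ratio, 0.258, was 0.217 at a sum of at least 2, 0.318 at 5, 0.343 with no XCL1 limit, 0.501 after thinning to 500 UMIs and 0.390 without other markers. Among all members, 921 genes higher in EL and 782 higher in EIS became 437 and 1236 with TMM factors, 308 and 149 with CD3D or CD3G (a call split of 67.4% higher in EL, against 54.1%), 375 and 400 at a sum of at least 12 and 181 and 153 without other markers. Genes higher in EL numbered 610 without genes over 1% of UMIs (38.1% of calls), 514 with the median ratio (31.8%) and 581 at 50 UMIs or more. TMM moved the median gene from 0.21 to -0.12. Against XCL1 barcodes, 302 higher and 247 lower genes in EL became 165 and 161 with at least 5 XCL1 UMIs, 173 and 64 at 50 UMIs or more and 123 and 87 without other markers. In EIS, 492 and 356 became 161 and 146 without other markers, and 238 were higher with at least 5 XCL1 UMIs. These causes were not tested.

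IFIT2 reversed at a sum of at least 5 (-0.27) and 12 (-0.43), without other markers (-1.87) and with equal weight per member (-0.48). With CD3D or CD3G, IFIH1 reversed to -0.22, IL2RB to -0.071 and LMO2 to 0.20, and with equal weight C3 reversed to -0.067. Of the other single-gene values between libraries, 1622 were kept and 354 moved or changed their call, and against XCL1 barcodes 338 were kept and 38 moved or changed. Chosen after seeing the data were the sum of 12, leaving out shared barcodes, leaving out other markers against XCL1 barcodes, and the alternatives within members without other markers. The median depth of 1232 to 2078.5 UMIs limits detection of low genes in single barcodes. No paired analysis was possible because each group is 1 library. No replicate could be left out for the same reason.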
